A study of Caenorhabditis elegans with 2 samples.

Results

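The 300 peaks with the highest scores were taken from the 4835 reproducible EFL-1 peaks of first-stage C. elegans larvae. They were chosen by the peak score in the set the authors built from the pooled reads of both replicates. Their scores ran from 1836 to 15978 with a median of 2942, and those of the other 4535 peaks from 59.6 to 1818 with a median of 165. EFL-1 was immunoprecipitated with its bound chromatin and the DNA sequenced (ChIP-seq), from whole hermaphrodite larvae of the wild-type strain N2, at the L1 stage and grown at 26 °C. The labels give 1 group of 2 biological replicates, with library fragments of 150 to 350 bp and no second condition. The animals' cell types were not separated, so a peak can come from any of them. The score's scale is not stated, and it was used only to rank peaks within a list. Read depth is unknown from the peak lists.

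EFL-1 is an E2F transcription factor of C. elegans. E2F proteins bind DNA as dimers with a DP partner. In the DREAM complex they act beside a retinoblastoma-like pocket protein and the LIN-54 subunit, which recognises a short element called the cell cycle genes homology region (CHR). The complex is known for keeping cell cycle genes repressed in resting cells. Most cells of an L1 larva have left the embryonic divisions, while blast cells and the germline precursors divide during larval growth.

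The sequences around the summits of 10 of the highest peaks at gene starts show what the protein was found on. Each is the plus strand of ce11 (WBcel235), reaching 50 bases to each side of the summit, from 5′ to 3′. Capitals mark matches on either strand to the E2F consensus (TTCCCGC or TTCGCGC or TTGCCGC or TTGGCGC) or to the CHR (TTCGAA or TTTGAA).
rpl-3 (rank 1, III:3867514-3867614): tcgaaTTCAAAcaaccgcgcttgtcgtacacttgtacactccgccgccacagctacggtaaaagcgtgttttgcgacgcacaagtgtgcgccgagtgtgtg
cdc-48.1 (rank 2, II:10563528-10563628): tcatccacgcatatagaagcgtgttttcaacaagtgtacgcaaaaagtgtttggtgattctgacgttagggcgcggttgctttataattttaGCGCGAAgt
rpl-35 (rank 3, III:7854631-7854731): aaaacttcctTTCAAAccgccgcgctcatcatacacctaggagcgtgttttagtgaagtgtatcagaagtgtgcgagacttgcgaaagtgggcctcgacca
citk-2 (rank 4, II:4999289-4999389): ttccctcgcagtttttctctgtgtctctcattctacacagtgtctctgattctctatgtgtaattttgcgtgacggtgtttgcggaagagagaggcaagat
sec-61.G (rank 5, V:10897330-10897430): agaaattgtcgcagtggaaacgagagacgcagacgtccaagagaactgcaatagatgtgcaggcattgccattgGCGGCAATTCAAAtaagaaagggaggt
tasp-1 (rank 6, III:10759201-10759301): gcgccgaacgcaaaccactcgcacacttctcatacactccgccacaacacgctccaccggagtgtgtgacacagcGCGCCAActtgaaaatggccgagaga
dld-1 (rank 7, IV:14464205-14464305): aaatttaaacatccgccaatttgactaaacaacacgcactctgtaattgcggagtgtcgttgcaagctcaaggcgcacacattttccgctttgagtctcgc
eelo-2 (rank 8, IV:17249849-17249949): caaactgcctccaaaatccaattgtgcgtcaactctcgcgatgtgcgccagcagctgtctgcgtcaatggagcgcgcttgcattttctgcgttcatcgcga
T23F6.3 (rank 9, IV:12724783-12724883): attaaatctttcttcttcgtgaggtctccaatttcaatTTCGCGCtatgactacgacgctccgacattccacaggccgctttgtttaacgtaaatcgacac
F48A11.4 (rank 11, II:216714-216814): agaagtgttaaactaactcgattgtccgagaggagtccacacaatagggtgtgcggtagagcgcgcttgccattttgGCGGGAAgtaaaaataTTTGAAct
The CHR match of sec-61.G lay directly against the TT end of its E2F match, so that both form an unbroken run of capitals. The 3 sequences at citk-2, dld-1 and eelo-2 held neither element within these bases. Within 100 bp of the summit they had 3, 1 and 1 CHR matches and no E2F match.

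The highest peak at a DNA replication gene, at clsp-1 (rank 24), is not shown. The 4 that follow it by score are given in the same way, because the E2F consensus was found at different shares of replication and ribosomal protein peaks.
top-2 (rank 58, II:11874818-11874918): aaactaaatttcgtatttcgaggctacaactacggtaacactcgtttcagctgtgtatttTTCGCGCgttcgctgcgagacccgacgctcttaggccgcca
pcn-1 (rank 77, IV:4049648-4049748): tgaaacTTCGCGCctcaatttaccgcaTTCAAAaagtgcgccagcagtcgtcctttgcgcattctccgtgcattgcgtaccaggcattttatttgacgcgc
orc-5 (rank 98, IV:10734673-10734773): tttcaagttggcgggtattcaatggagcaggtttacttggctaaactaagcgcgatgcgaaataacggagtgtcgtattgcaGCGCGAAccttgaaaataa
tim-1 (rank 106, III:12250349-12250449): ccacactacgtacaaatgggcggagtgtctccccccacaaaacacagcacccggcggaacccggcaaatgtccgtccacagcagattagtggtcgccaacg
The peak at tim-1 had its E2F and CHR matches outside the bases shown, within 100 bp of the summit.

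Nearly all of the 300 summits lay at protein-coding starts. A promoter window was drawn from 500 bp upstream to 200 bp downstream of each of the 19973 protein-coding starts on the 6 nuclear chromosomes, and 269 of the 300 summits (89.7%, exact 95% interval 85.7 to 92.9) lay in such a window. Of the next 300 peaks by score, 81% (76.1 to 85.3) did so, and of all 4535 other peaks 47% (45.6 to 48.5). The intervals cover counting error only. In the 269 promoter peaks the summit lay a median of 156 bp upstream of the nearest start (quartiles 85 and 244 bp), against 152.5 bp in the other promoter peaks. The start lay downstream of the summit at 258 of the 269 (95.9%, interval 92.8 to 97.9), against 91.7% (90.4 to 92.8) of the other promoter peaks. The median distance to the start was thus alike in strong and weak promoter peaks, and the share of peaks at starts was not.

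These windows named 348 genes, 1.74% of all protein-coding genes, of the 15.2% that had any summit of the set. Of the 269 promoter peaks, 78 (29.0%, interval 23.6 to 34.8) lay in the windows of starts on opposite strands, against 36.2% in the next 300 and 26% of all other promoter peaks. Several such peaks joined genes of unlike function. The peak of rank 24 lay 14 bp upstream of eef-2, which encodes translation elongation factor 2, and 251 bp upstream of clsp-1, the claspin gene of the replication checkpoint. At rank 58 it lay between npp-3, a nuclear pore gene, and top-2, which encodes topoisomerase II. A peak with a score of 3351 joined rfc-4, a clamp loader gene, and eef-1A.1, which encodes elongation factor 1A. At such peaks the data do not tell which gene the binding belongs to. At 68 promoter peaks (interval 20.2 to 30.9%) each named start followed another gene of its own strand by at most 500 bp, so that it may belong to a downstream gene of an operon. That share was 15.3% (13.8 to 16.9) in the other promoter peaks. Counted over genes, such starts made up 19.5% of the 348, 13.3% of all genes with a peak and 18.1% of all protein-coding genes, so that the 348 were near the share of all genes.

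**Figure D1:**
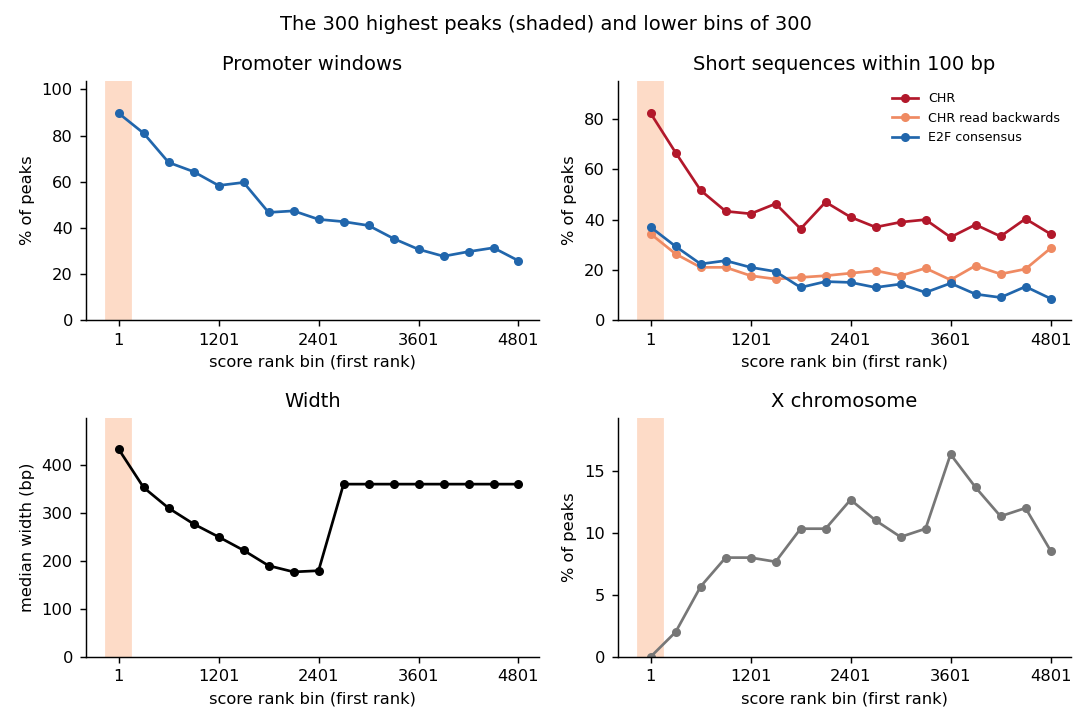
Share of peaks in a promoter window, share with the E2F consensus, with the CHR and with the CHR read backwards within 100 bp, median width, and share on X, by bins of 300 peaks in order of score; the x axis gives the first rank of each bin (the last bin holds 35 peaks) and the shaded bin is the 300 highest. The promoter share falls from 89.7% in the first bin to 25.7% in the last, and the share on X is 0% in the first bin.

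None of the 300 highest peaks lay on X. The count of 0 allows a share of up to 1% by the limit of 3 counts of 300, and its exact 95% interval reached 1.22%. On X lay 6 of the next 300 peaks by score (2.0%) and 450 of all 4535 others (9.92%, interval 9.07 to 10.8). The highest peak on X had rank 307 (X:6804882-6805292, score 1805) and lay in no promoter window. The highest at a gene start on X had rank 373, 215 bp upstream of klp-13, a kinesin gene. The peak at rpl-11.2, a ribosomal protein gene on X, had rank 496 and a score of 1171. Among the autosomes the 300 peaks were spread as 63 on I, 62 on II, 73 on III, 53 on IV and 49 on V, and each autosome's share in the whole set lay inside the interval of its share in the 300. On III the latter was 24.3% (19.6 to 29.6), against 20.2% of the whole set.

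Both replicates placed nearly all of these peaks at the top of their own lists. Each of the 300 had a peak within 100 bp of its summit in both replicate lists, as did each of the next 300. Of all 4535 other peaks, 97.9% had such a match in replicate 1 and 99.4% in replicate 2, so a match was near universal in the set. Of the 300, 271 (90.3%, interval 86.4 to 93.4) were among the 300 highest of both replicates. Each of the other 29 was among the 300 highest of 1 replicate. Of replicate 1's 300 highest, 281 were members, and of replicate 2's, 290. The replicates contributed to the pooled reads that gave the score, so this agreement is a description. The ranks of the 300 peaks in the 2 lists had a Spearman correlation of 0.90 over 300 peaks, against 0.56 in the next 300 and 0.90 over the 4418 other peaks matched in both, which span a wider range of ranks. They differed by a median of 22 places (quartiles 9 and 48.25, largest 143), against 65.5 places in the next 300. The summit moved by a median of 1 bp between the set and replicate 1 (largest 41 bp) and 0 bp for replicate 2 (largest 26 bp). The scores of the 300 ran from 542 to 6341 with a median of 1038 in replicate 1's list and from 1074 to 9694 with a median of 1915 in replicate 2's, on scales that cannot be compared without the read depth.

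The order of the first peaks was almost the same in both replicates. The peak at rpl-3, with scores of 6341 in replicate 1 and 9694 in replicate 2, ranked 1 in both lists. That at cdc-48.1 ranked 2 in both (5421 and 9561), and that at rpl-35 ranked 3 in both (5066 and 7855). The peak at citk-2 ranked 5 and 4, that at sec-61.G 4 and 6, and that at tasp-1 6 and 5. The peak at efl-1, the gene of the immunoprecipitated factor itself, ranked 13 in replicate 1 (2728) and 11 in replicate 2 (5325). Among the 20 highest, the pair Y53F4B.11 and Y53F4B.9 shared the peak that differed most, with ranks of 32 and 15.

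**Figure D2:**
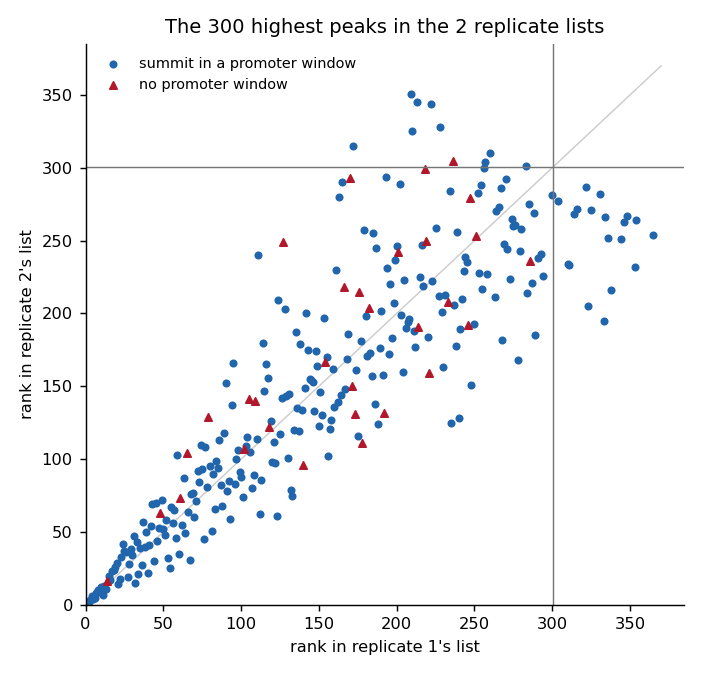
Rank of each of the 300 highest peaks in replicate 1's list (x axis) and in replicate 2's list (y axis); circles are peaks with the summit in a promoter window, triangles the 31 others, and the grey lines mark rank 300. No point lies beyond both lines, and the largest rank in replicate 1 is 365.

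The members with the lowest places in a replicate came from the lower end of the 300. The peak at pas-5, a proteasome alpha subunit gene, had rank 285 in the set, 365 in replicate 1 (score 542) and 254 in replicate 2 (1359). The same direction was seen at mff-2 (mitochondrial fission factor), at the peak shared by kup-1 and F10C2.4, which RefSeq annotates as the catalytic subunit of DNA polymerase delta, and at pqbp-1.1. It was also seen at W09C5.1 (ribosome biogenesis protein NSA2), the pair snr-2 and W08E3.4, and the pair ubc-18 and R01H2.8. The opposite order was seen at 3 of these lowest-placed peaks. Among them were that of cdk-5, with 213 in replicate 1 and 345 in replicate 2, and that of wip-1 (222 and 344).

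Just inside the boundary of the 300 lay F19B10.1 (score 1857), mcm-4, which encodes a subunit of the replicative helicase (1843), and F28F8.9 (1836). Just outside lay F35D11.4 (1818), a peak in the 5′ UTR of agt-2 outside any window (1812) and F38A1.8 (1810). The boundary was set by rank.

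The 300 peaks were wide. Their width ran from 326 to 757 bp with a median of 433 bp (quartiles 403 and 464 bp), against a median of 353 bp in the next 300 and 360 bp over all other peaks. Over 400 bp were 234 of the 300 (78%, interval 72.9 to 82.6) and 115 of the other 4535 (2.54%). A width of exactly 360 bp was found in 2145 of the other peaks (47.3%) and in 2 of the 300, and it filled the lower bins of the set. Within the 300, score and width had a Spearman correlation of 0.63 over 300 peaks of 1 peak list. The widest peaks were not the highest: acl-2, an acyltransferase gene (757 bp, rank 175), Y54G11A.2 (745 bp, rank 156), ttb-1, the gene of transcription factor IIB (672 bp, rank 224), pqn-51 with K11D12.14 (658 bp, rank 253) and pri-2, a primase subunit gene, with W02D9.2 (621 bp, rank 142). The narrowest were at W08E12.7 (326 bp, rank 290), at mdf-2, the spindle checkpoint gene, with nduv-3 (343 bp), at rps-20 with ekl-4 (345 bp), at wip-1 (347 bp) and in no window (346 bp, rank 273).

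Both elements were more frequent around these summits than around the others, and so, in similar proportion, were both read backwards. The E2F consensus lay within 100 bp of 111 of the 300 summits (37%, interval 31.5 to 42.7), of 29.3% in the next 300, and of 16.3% (15.2 to 17.4) of all other peaks. Read backwards without complementing, it was found at 22.7% of the 300 and 9.68% of the others. In windows of the same length placed 500 bp to each side of the 300 summits the consensus was found in 6.33% and 7.67%, and 6.89% of all protein-coding starts held it in a window of that length centred 150 bp upstream. The CHR lay within 100 bp of 247 of the 300 (82.3%, 77.5 to 86.5), of 66.7% in the next 300 and of 42.3% (40.8 to 43.7) of all others. Its frequency was 47% and 46% in the flanks and 55.9% at all protein-coding starts. Read backwards it was found at 34.3% of the 300 and 19.4% of the others. Both elements were present at 98 of the 300 (32.7%, 27.4 to 38.3) against 9.50% (8.67 to 10.4) of the others, and neither at 40 (13.3%) against 51%. Among promoter peaks alone the CHR share was 82.9% in the 300 and 48.5% in the others, and the E2F share 37.2% and 17.6%. The median GC content of these windows was 38.8% in the 300 and 42.3% in the others, and its part in the shares of either element was not tested.

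The elements lay beside the summits, not under them. In the 300 peaks, 23 E2F matches were centred 21 to 30 bp to the left of the summit and 27 at 20 to 29 bp to its right, against 7 and 2 in the bins of 10 bp that touch the summit. The CHR was further out, with 53 matches at 31 to 40 bp to the left, 48 at 30 to 39 bp to the right, and 1 in each of the bins of 10 bp that touch the summit. Read backwards, the CHR was also sparse in the touching bins (2 and 3 matches), but it had only 5 and 3 in the bins of the CHR's maxima. The E2F consensus read backwards had 10 and 5 in the touching bins. In the other peaks the CHR was sparse at the summit too, with 60 and 57 matches in the touching bins against 144 and 191. The nearest E2F match was a median of 27 bp from the summit in the 111 peaks that held it (quartiles 20 and 35), and the nearest CHR 35.5 bp in 247 peaks (28 and 44). In the other peaks these medians were 30 and 45.5 bp, with wider quartiles of 15 to 53 and 27.5 to 65.5 bp. Relative to the nearest gene's direction, the nearest CHR within 50 bp lay upstream of the summit at 125 promoter peaks of the 300 and downstream at 54, and in the next 300 at 81 and 41. Over all other promoter peaks the counts were 265 and 298. For the E2F consensus the counts in the 300 were 49 and 36.

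**Figure D3:**
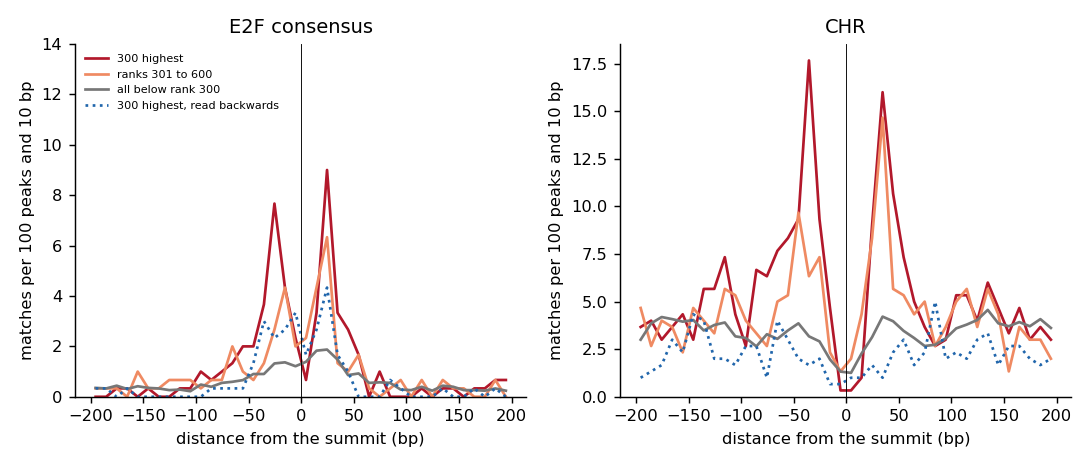
Matches to the E2F consensus (left) and the CHR (right) per 100 peaks in bins of 10 bp, by distance from the summit in the genome's direction, for the 300 highest peaks, the next 300, all peaks below rank 300, and, dotted, the element read backwards in the 300 highest. Both elements form a maximum on each side of the summit in the 300 highest, at 20 to 30 bp for the E2F consensus and 30 to 40 bp for the CHR, and a minimum at the summit.

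Where both elements were present, a few arrangements recurred. Of the 98 peaks with both, 15 had a CHR directly against the TT end of an E2F match, as in the sequence at sec-61.G, 12 had 1 base between them and 12 had 9 bases. No other gap of up to 30 bases on that side was found at more than 4 of the 98 peaks. The same gaps recurred in the 431 other peaks with both elements, at 36, 49 and 46 of them. A CHR match cannot overlap an E2F match, because of the bases each pattern requires, so direct contact is the closest arrangement possible. These spacings were chosen after the data were seen and are given as counts.

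The genes at the peaks were spread over the general machinery of the cell, and few chemoreceptor and no nuclear hormone receptor genes were among them. Of 34 function lists with 3479 genes, 27 had a member among the 348 genes. The lists held 122 of the 348, and 226 were in none. No member was found in the lists of neuronal genes (0 of 185, which allows a share of up to 1.62%), nuclear hormone receptors (0 of 274, up to 1.09%), homeobox and bHLH factors (0 of 111, up to 2.70%), muscle structure (0 of 41, up to 7.32%), or intestine and yolk (0 of 41, up to 7.32%). Against the 1.74% of all genes, the homeobox, muscle and intestine lists held too few genes for a count of 0 to show a lower share. Each limit given for a count of 0 is 3 counts of the list's genes, and the exact 95% intervals reach further. The exact 95% interval of the neuronal list reached 1.97%, so its count of 0 does not show a lower share either. That of the nuclear hormone receptors reached 1.34%. The vacuolar ATPase (0 of 21, up to 14.3%) and histones (0 of 50, up to 6.0%) had no member either, although 11 and 15 of their genes had a weaker peak. Both lists were also too small for a count of 0 to show a lower share. Ranked by replicate 1 alone, 1 histone gene was named. Of 1300 chemoreceptor genes 3 were named (0.231%), and each shared its peak with another gene, among them sri-5 with the splicing gene rsr-1 and srr-10 with clic-1, a clathrin light chain gene. Of 175 cuticle collagen genes 1 was named (0.571%, interval 0.0145 to 3.14, which held the 1.74% of all genes). This gene, col-38, shared the peak of rpl-5. Meiosis (hsr-9), germline (spn-4) and small RNA pathways (pash-1, the partner of Drosha) had 1 gene each, of 45, 51 and 62, which is near the share of all genes.

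**Figure D4:**
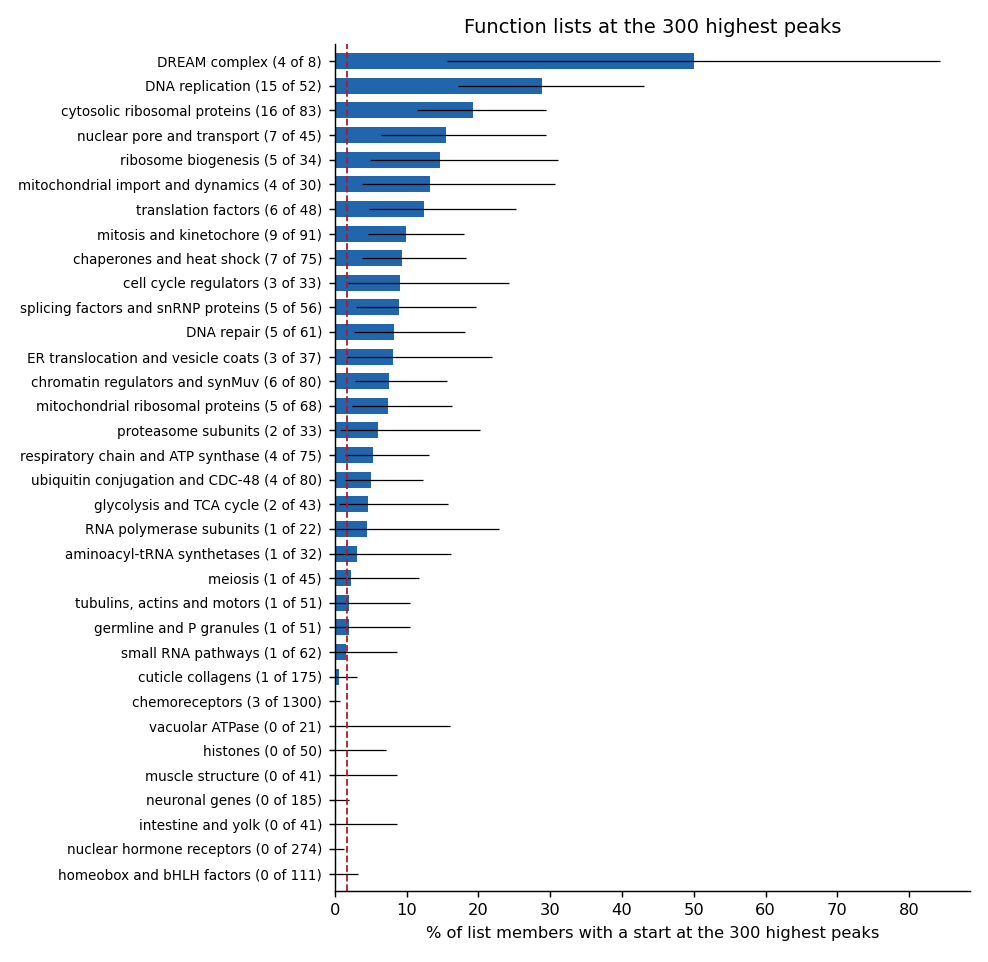
Share of the genes of each function list with a start at the 300 highest peaks; bars are percentages, black lines exact 95% intervals for counting error, and numbers in brackets the counts. The dashed line is the 1.74% of all protein-coding genes; 4 of 8 DREAM genes and 15 of 52 replication genes stand highest.

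Of 52 DNA replication genes, 15 (28.8%, interval 17.1 to 43.1) had a start at the 300 peaks, and these were 35.7% of the 42 with any peak of the set; for all genes that last share was 11.5%. The members with the highest peaks were clsp-1 (5892), top-2 (4686), pcn-1, which encodes the sliding clamp PCNA (4069), and orc-5 of the origin recognition complex (3726). They were followed by tim-1 (timeless), rfc-4, pri-2, ctf-4, pole-1 (DNA polymerase epsilon), mcm-7, psf-3 of the GINS complex, pola-1 (DNA polymerase alpha), tipn-1, sld-2 and mcm-4. The gene F10C2.4 at rank 266, annotated by RefSeq as the catalytic subunit of DNA polymerase delta, is a replication gene that the list did not hold under this name.

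Other lists of cell division differed in their shares. Of 91 mitosis and kinetochore genes, 9 (9.89%, 4.62 to 17.9) were named: citk-2 (11572) and citk-1 (4065), both named for citron kinase, the kinetochore genes kbp-4 (4180) and knl-3 (3140), the condensin gene hcp-6, the separase gene sep-1 with its securin ify-1, the centriole gene sas-6 and mdf-2. Outside the list lay ska-3 (4896), a spindle and kinetochore gene that shares its peak with rps-12. Of 33 cell cycle regulators, 3 were named, wee-1.3, which encodes an inhibitory kinase of CDK-1 (4529), the cyclin B gene cyb-1 (3726, at the peak of orc-5) and the checkpoint kinase gene chk-1 (1893). Of 8 DREAM genes, 4 were named, efl-1 (8035), lin-54, lin-9 and lin-53. DNA repair had 5 of 61, with hpr-17 (5280) and polh-1 (4650) the highest, and chromatin and synMuv regulators 6 of 80, with the histone methyltransferase gene mes-2 (5647), the H2A.Z gene htz-1 (2646), rcor-1 (2611) and isw-1 (2282).

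Genes of protein synthesis formed the other large group. Of 83 genes in the cytosolic ribosomal list, 16 (19.3%, 11.4 to 29.4) had a start at the 300 peaks, 22.5% of the 71 with any peak. Highest were rpl-3 (15978), rpl-35 (12887), rpl-24.2 (6072), which RefSeq annotates as a ribosome biogenesis protein, and rps-12 (4896). Ribosome biogenesis added 5 of 34 genes: rbd-1 (8802), nol-58 (4605), wdr-46 (4242), exos-2 of the exosome and lpd-6. Translation factors had 6 of 48 (12.5%), with eef-2 (5892), eif-3.C (5497), eif-3.B (3835) and iff-2, which encodes eIF5A (3400). Mitochondrial ribosomal proteins had 5 of 68 (mrpl-28, mrps-16, mrpl-55, mrpl-47 and mrps-35). Aminoacyl-tRNA synthetases had 1 of 32 (vars-1), and the interval of that share (0.0791 to 16.2%) held the 1.74% of all genes. Without possible downstream operon genes the synthetase count was 0.

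Genes of transport into the nucleus, protein folding and mitochondria were among the members too. Nuclear pore and transport genes had 7 of 45 (15.6%, 6.49 to 29.5), led by imb-3 (6086) and ima-2 (4627), importin genes, and by npp-3 (4686) and npp-19 (4418). Chaperones had 7 of 75: dnj-9 (5439), the co-chaperone gene sti-1 (5050), the prefoldin genes pfd-6 (4949) and pfd-5, and the chaperonin genes cct-1 (2747), cct-8 and cct-6. Mitochondrial import had 4 of 30, ddp-1 (6464), the prohibitin gene phb-2 (5032), the import receptor gene tomm-20 (4906) and spg-7 (2176). The respiratory chain had 4 of 75 (cox-5A at 6652, nduf-11, cox-10 and nduv-3). Glycolysis and the TCA cycle had 2 of 43, dld-1 (9169) and mdh-2 (2938). Splicing had 5 of 56 (snr-6, isy-1, lsm-5, rsp-6 and snr-2), the proteasome 2 of 33 (rpn-11 at 3654 and pas-5), the ubiquitin list 4 of 80 (cdc-48.1, ubc-7, ubxn-1 and ubc-18), the secretory list 3 of 37 (among them sec-61.G and sec-24.1), RNA polymerases 1 of 22 (rpb-11 at 5321) and tubulins, actins and motors 1 of 51 (tba-2). The last of these, at 1.96%, was near the 1.74% of all genes, and the intervals of the proteasome (0.743 to 20.2), glycolysis and TCA cycle (0.568 to 15.8), RNA polymerase (0.115 to 22.8) and respiratory chain (1.47 to 13.1) lists and of the ubiquitin (1.38 to 12.3) and secretory (1.70 to 21.9) lists also held that share. Ranked by replicate 1 alone, splicing had 3 genes and the proteasome 1. Without possible downstream operon genes, splicing had 2 and the proteasome and the glycolysis and TCA cycle list 1 each. The tubulin list and the small RNA pathways then had 0. With the 150 highest peaks, splicing had 0 genes, and the chromatin and synMuv list fell from 6 to 1.

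All 348 genes, listed and unlisted, had a RefSeq product name. A word for splicing stood in 10 of them (2.87%, against 1.12% of the 2679 other genes with a peak and 0.335% of all), a word for ribosomes or rRNA in 27 (7.76%, 4.40% and 1.14%) and a word for mitochondria in 19 (5.46%, against 4.52% of the others with a peak). Uncharacterized products made up 12 (3.45%), against 4.82% of the others with a peak and 9.35% of all genes. Receptor words stood in 7 (2.01%), close to the 2.16% of the others with a peak, against 11.2% of all genes. Among the peaks ranked 21 to 60 the unlisted genes included the splicing genes smu-1 (5771) and syf-3 (5736), Y94H6A.3, annotated as the splicing helicase PRP16 (5431), the elongation factor gene pafo-1 (5520) and ints-4 of the Integrator complex (4749). They also included cyn-3, a prolyl isomerase gene (5867), elb-1, annotated as a ubiquitin-like protein (5689), icd-2 of the nascent polypeptide-associated complex (5195), umps-1 of pyrimidine synthesis (5141), and smr-1, which encodes a Tudor domain protein (4705). Mitochondrial enzymes and carriers among them were pdhk-2 (6040), dbt-1 (4972), F32A11.1, annotated as the import subunit Tim21 (5280), and ant-1.1, the ADP/ATP translocase gene (4783). Others were vig-1 (4916), lrpr-1 (4698), tag-281 (4697), ndx-6 (5451), the JmjC domain gene C27F2.9 (5560), haf-3 with F57A10.2 (5287), phm-2 (5028), ego-2 with Y53H1C.3 (5127), F56A8.3 (4940), E01B7.2 (5272) and Y41C4A.11 (at the peak of elb-1).

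The E2F consensus was unevenly divided between these groups. It lay within 100 bp of 13 of the 15 peaks at DNA replication genes (86.7%, interval 59.5 to 98.3), with the CHR at 12 of 15. At cytosolic ribosomal genes it lay at 4 of 16 peaks (25%, 7.27 to 52.4), again with the CHR at 12. Read backwards, the consensus was at 13.3% of these replication peaks and at the same 25% of the ribosomal ones. Of the 16 ribosomal peaks 11 were divergent, and of the 15 replication peaks 9. All 4 ribosomal peaks with the consensus were shared with a gene on the other strand. These were rps-12 with ska-3, rpl-5 with col-38, rpl-12 with lin-54 and rpl-22 with ify-1. The highest replication peaks held 3 matches at clsp-1 and 2 each at top-2 and pcn-1, and the peak at mcm-4 held 4, whereas those at rpl-3, rpl-35 and rpl-24.2 held none. In the lower part of the set the same groups had the consensus at 18 of 28 replication peaks (64.3%, 44.1 to 81.4) and at 3 of 52 ribosomal peaks (5.77%, 1.21 to 15.9). There the CHR was found at 82.1% of the replication peaks and 32.7% (20.3 to 47.1) of the ribosomal ones, so that the CHR share differed in the lower part and was close, at 12 of 15 and 12 of 16, in the 300.

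Other groups stood on both sides of this division. All 7 nuclear pore and transport peaks held the consensus and the CHR, as did all 4 DREAM peaks. Of the 5 peaks at mitochondrial ribosomal genes, 5 held the consensus and 2 the CHR. These full shares of the consensus were not seen in the lower part of the set. There it lay at 11 of 29 nuclear pore and transport, 0 of 2 DREAM and 6 of 29 mitochondrial ribosomal peaks. The CHR lay there at 22 of 29, 1 of 2 and 14 of 29. Among the highest peaks, those of mitosis and kinetochore genes held the consensus at 4 of 9 and DNA repair at 1 of 5. Translation factors held it at 2 of 6, chaperones at 2 of 7 and mitochondrial import at 0 of 4. Over 5 lists of cell division together, leaving out peaks shared with protein synthesis, 20 of 29 peaks (69.0%, 49.2 to 84.7) held it. Over 5 lists of protein synthesis, leaving out peaks shared with cell division, it was 9 of 27 (33.3%, interval 16.5 to 54), and the 6 shared peaks held it at 4. These groups were formed after the data were seen, and no test was made of the differences.

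**Figure D5:**
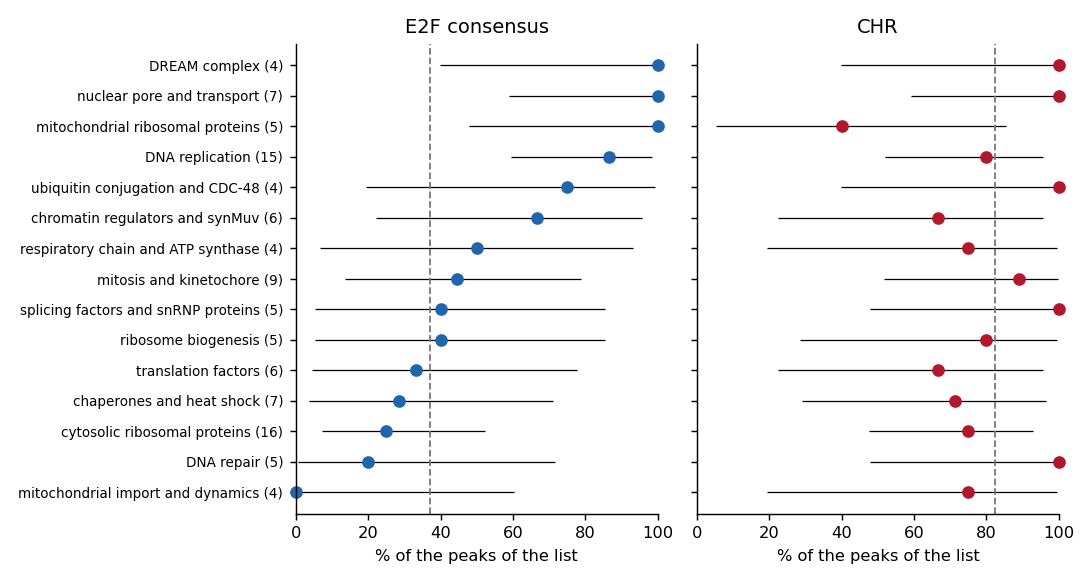
Share of the peaks of each list among the 300 highest that hold the E2F consensus (left) or the CHR (right) within 100 bp of the summit, for lists with 4 or more peaks (number in brackets); points are percentages, lines exact 95% intervals, and the dashed lines the shares over all 300 peaks, 37% and 82.3%. DREAM, nuclear pore, mitochondrial ribosomal and replication peaks stand to the right for the E2F consensus and cytosolic ribosomal peaks at 25%.

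The 31 peaks in no promoter window were of several kinds. Outside protein-coding genes lay 19, in introns 11 and in a 5′ UTR 1. Within 1000 bp of a protein-coding start lay 15 of them and within 2000 bp 22. A tRNA, rRNA, snRNA or snoRNA gene lay within 200 bp of 1 of the 31 and of 3 of all 300 (1.0%, 0.207 to 2.89), against 348 of the 4535 other peaks (7.67%, 6.92 to 8.49). The highest was the peak of rank 15 (I:16780-17256, score 6808), 188 bp outside the neuropeptide-like gene nlp-40 and 5530 bp from its start, with 3 CHR matches and no E2F match. The peak of rank 59 (V:2600526-2600976, score 4680) lay 1224 bp from a pseudogene and held 2 matches to each element. A further one (rank 67) lay 358 bp from F40E3.3, that of rank 88 295 bp from a piRNA gene, and that of rank 105 in the 5′ UTR of C34C12.2. That of rank 108 was in an intron of wht-3, and that of rank 124 in an intron of B0432.10, with 2 E2F matches. Another (rank 110) lay 178 bp from a pseudogene, and one at V:10536847-10537264 was 30 bp from the noncoding RNA gene F25D1.10. The peaks of ranks 128 and 205 lay in introns of Y65A5A.2, with summits 517 bp apart, and their intervals overlap.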

How the data were processed

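EFL-1 ChIP-seq peak lists of 2 biological replicates of whole L1 larvae were used. Per the file headers and the text deposited with the samples, relaxed lists were called for each replicate and for the pooled reads, and a set was thresholded by the irreproducible discovery rate (IDR). The IDR set equals the 4835 highest peaks of the pooled list. The aligner, peak caller and read numbers were not given in the sources used here, and the control and signal tracks were not analysed here. The authors deposited a peak score per peak, of unstated scale, and a −log10 q, which stood at its ceiling in the set; the deposited −log10 q was not used. Members were the 300 highest scores on ce11. A value here is a peak's own and has no replicate SD.

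Gene models were from Ensembl release 115 and sequence and product names from RefSeq, both on WBcel235. Summits were matched between lists within 100 bp and elements searched on both strands within 100 bp. Function lists held 1064 entries by name, of which 46 matched no gene and dropped out, and name patterns for families. Members, lists and the rule for named genes were chosen with earlier results of these data known. Genes named are those of ranks 21 to 60, the 4 highest of each list, those at the boundary, at the extremes of width and replicate rank and in no window, except a few not reported here; others, and the CHR, spacing and product-word counts, were chosen after their values were seen. The sequences shown were lengthened to 50 bases each side of the summit after the elements' positions were seen. With 1 group, no test between conditions was possible; shares have exact 95% binomial (Clopper-Pearson) intervals. Window, matching and search steps were tested on simulated data. Python 3.11.15, pandas 2.3.3, SciPy 1.17.1 and matplotlib 3.10.9 were used; alternatives tried are the number of peaks, each replicate's score in place of the pooled one, window sizes, match distance, operon genes, the ce10 set and elements read backwards.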

Additional observations from a re-analysis of the deposited data

How the results depend on the processing

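Of 322 alternatives, 81 of the main results' values and 170 of the lists' values stayed within the 95% interval of a share or 1.5 times of a count, and 24 and 47 moved beyond it. With the 150 highest peaks, the counts became 171 genes, 7 replication, 12 ribosomal, 4 mitosis and 49 other listed genes, and the median width 455.5 bp; 7 of 52 replication genes is then a lower share than 12 of 83 ribosomal ones. With 600 they became 686 genes, 23 replication, 23 mitosis, 35 ribosomal and 158 other listed genes, a median width of 395 bp, 85.3% in promoter windows and 74.5% with the CHR. The window of 300 bp upstream to 100 bp downstream gave 75.3% in windows and 21.2% divergent, and that of 1000 to 500 bp 94.0% and 36.9%. Read backwards, the E2F consensus fell to 22.7% of the 300, 13.3% of replication and 17.2% of cell division peaks, and the CHR to 34.3%. The consensus read backwards was at 25% of ribosomal peaks, as forwards, and at 18.5% of protein synthesis peaks. The excess of replication over ribosomal and of cell division over protein synthesis peaks was thus not seen with the reversed sequence. The alternatives for the CHR and for single lists' peaks were chosen after seeing the data. With 50 bp each side the CHR was at 65.7% of the peaks and the E2F consensus at 6.25% of ribosomal peaks; with 200 bp the CHR was at 94.7%. Ranking by replicate 2 or replicate 1 alone shared 290 and 281 of the 300 peaks and moved no share, width or main count beyond these limits; by replicate 1 alone, splicing fell from 5 to 3 genes, the proteasome from 2 to 1, and histones rose from 0 to 1. No paired analysis was possible because the series has 1 group. The unknown read depth and the control, not analysed here, limit what the scores can say, and counts of under 10 peaks per list have wide intervals.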

Other observations

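Some of the 300 peaks lay close together. Of all neighbouring pairs, 6 had summits within 2000 bp of each other. The closest pair, 517 bp apart, lay in introns of Y65A5A.2. On III, the peak shared by sap-140 and C07H6.9 lay 1033 bp from a peak in no promoter window. On I, a run of 3 peaks spaced 1115 and 1434 bp apart lay at psf-3, icd-2 and wwp-1, which encode a GINS subunit, a nascent polypeptide-associated protein and a ubiquitin ligase.

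Genes for capping, cutting and exporting messages appeared among the unlisted members, and were picked out after their values were seen. They were cmtr-1 and cmtr-2, annotated as cap methyltransferases, pfs-2 of 3′ end processing, thoc-5 of the THO complex, hel-1, and the Integrator genes ints-4 and ints-1. The Mediator genes mdt-22 and sop-3, ttb-1 and the elongation gene emb-5 (SPT6) were members too. Neither group was compared with a list fixed by another rule.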
